A study of Mus musculus with 26 samples.

Results

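The genes described here encode the mouse transporters that carry drugs, lipids, sterols and organic ions across membranes, followed in liver tumours and control liver. They were chosen by symbol from the deposited table of read counts: ATP-binding cassette genes (Abca to Abcg), organic anion transporting polypeptides (Slco) and the solute carrier family 22 (Slc22a), with a total of at least 50 counts over the 26 libraries. Of 35976 entries in the table, 91 matched these symbols, 16 of them had a lower total and 6 were left out by name, which left 69 members. The left-out genes were Abcb11, Abcb4, Abcc2, Slco1b2, Slco1a1 and Slc22a5. Just inside the minimum were Slco4c1 with 55 counts, Slc22a13b-ps with 84 and Abcc8 with 105, and just outside were Slco1a6 with 40, Slc22a22 with 25 and Slc22a2 with 13.

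Tumour mice were of a mixed C57BL/6J and Swiss Webster background, were given tamoxifen at postnatal day 28, and were followed for 6 to 12 months. Cyp1a2_CA tumours carried Cyp1a2-CreERT2, a tamoxifen-activated Cre recombinase driven by a gene of hepatocytes around the central vein, together with Ctnnb1(ex3)fl/+ and Arid2fl/fl (10 libraries from 9 animals). Gls2_CA tumours carried the same floxed alleles with Gls2-CreERT2, driven by a gene of hepatocytes around the portal vein (9 libraries from 5 animals). Recombination of the Ctnnb1 allele removes exon 3 and stabilises beta-catenin, and Arid2 encodes a subunit of a chromatin remodelling complex. A single library, Cyp1a2_C, had Cyp1a2-CreERT2 and Ctnnb1(ex3)fl/+ without the Arid2 allele. Controls were WT C57BL/6J livers from mice given AAV-Cre and kept on normal chow for up to 12 months (6 libraries from 6 animals). Strain, virus, tamoxifen, sequencing depth and genotype therefore changed together between tumours and WT liver and cannot be told apart. In bulk tissue, fewer cells of a type and less RNA per cell cannot be told apart either.

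ABC proteins use ATP to move their cargo. In hepatocytes the ABCB1 and ABCC proteins export drugs and conjugates, ABCG5 and ABCG8 pair to secrete sterols into bile, and ABCA1 loads cholesterol onto apolipoprotein A-I. SLCO and SLC22 carriers mostly bring anions and cations from blood into the cell, so that liver can metabolise them. Some ABC members have other roles: ABCD proteins import fatty acids into peroxisomes, several ABCB proteins sit in mitochondria, ABCC8 and ABCC9 are subunits of potassium channels, and the ABCE and ABCF proteins act in translation and are not transporters.

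Depth was 36992043 to 49254470 counts in the tumour libraries and 13486530 to 16975288 in WT. The members held 0.356 to 0.394% of all counts in WT, 0.309 to 0.533% in Cyp1a2_CA and Gls2_CA tumours and 0.214% in the Cyp1a2_C library. In all, 4 tumour libraries (animals CAB44 and CAB225 of Cyp1a2_CA, GAB235 of Gls2_CA and CB6, the Cyp1a2_C animal) stood apart, with the muscle gene Ttn above 1000 CPM (a gene's counts relative to the scaled total of its library). As a check of the tissue label, the summed level of 7 hepatocyte markers was 74261 to 97548 CPM in WT. It was 11573 to 94182 in Cyp1a2_CA (median 20556), 4979 to 23723 in Gls2_CA and 678 in the Cyp1a2_C library. The highest Cyp1a2_CA animal was CAB52, and the next was CAB28 with 35378 CPM. The summed level of 8 endothelial markers was 343 to 389 CPM in WT against 179 to 298 in Cyp1a2_CA and 178 to 279 in Gls2_CA. For 7 macrophage markers the range was 228 to 272 CPM in WT, 45.0 to 209 in Cyp1a2_CA and 101 to 199 in Gls2_CA. Their part in the results below was not tested.

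Levels below are CPM per animal, with libraries of the same animal number summed. A gene is said to rise, fall or be called where the adjusted p of edgeR's quasi-likelihood test over all genes was under 0.05. Of 69 members, 58 passed the filter on low counts between Cyp1a2_CA and WT, where 21 rose, 12 fell and 25 were not called. Over all 16841 genes tested, 38.3% rose and 32.7% fell. Between Gls2_CA and WT, 54 members passed the filter, of which 24 rose, 13 fell and 17 were not called, against 39.2% and 34.0% of 14976 genes. The median log2 fold change of tested members was 0.63 in Cyp1a2_CA and 0.71 in Gls2_CA, against 0.17 and 0.14 over all genes tested. Both comparisons share the 6 WT livers. The animals of the groups did not overlap for 23 of 58 members in Cyp1a2_CA, where 44.2% of all genes tested did not overlap. In Gls2_CA they did not overlap for 24 of 54, against 55.8%. The members' shares of rises were near those of all genes, and their shares of falls and of groups without overlap were lower.

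Long transcripts were higher in tumours in these data: the median log2 fold change in Cyp1a2_CA was 1.27 over 2460 genes with more than 8000 exonic bases and -0.71 over 2538 genes with up to 2000. Members tested there had a median exonic length of 5901 bases against 4199 over all genes. With an offset for length and GC content, 13 of 58 members rose and 17 fell in Cyp1a2_CA. Over all genes 4549 of 14845 rose and 5210 fell there. In Gls2_CA 16 of 54 members rose and 16 fell, against 4127 and 5228 of 13521 genes. Upper-quartile scaling in place of TMM moved the median over all genes from 0.17 to -0.05 in Cyp1a2_CA and from 0.14 to -0.09 in Gls2_CA.

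**Figure D1:**
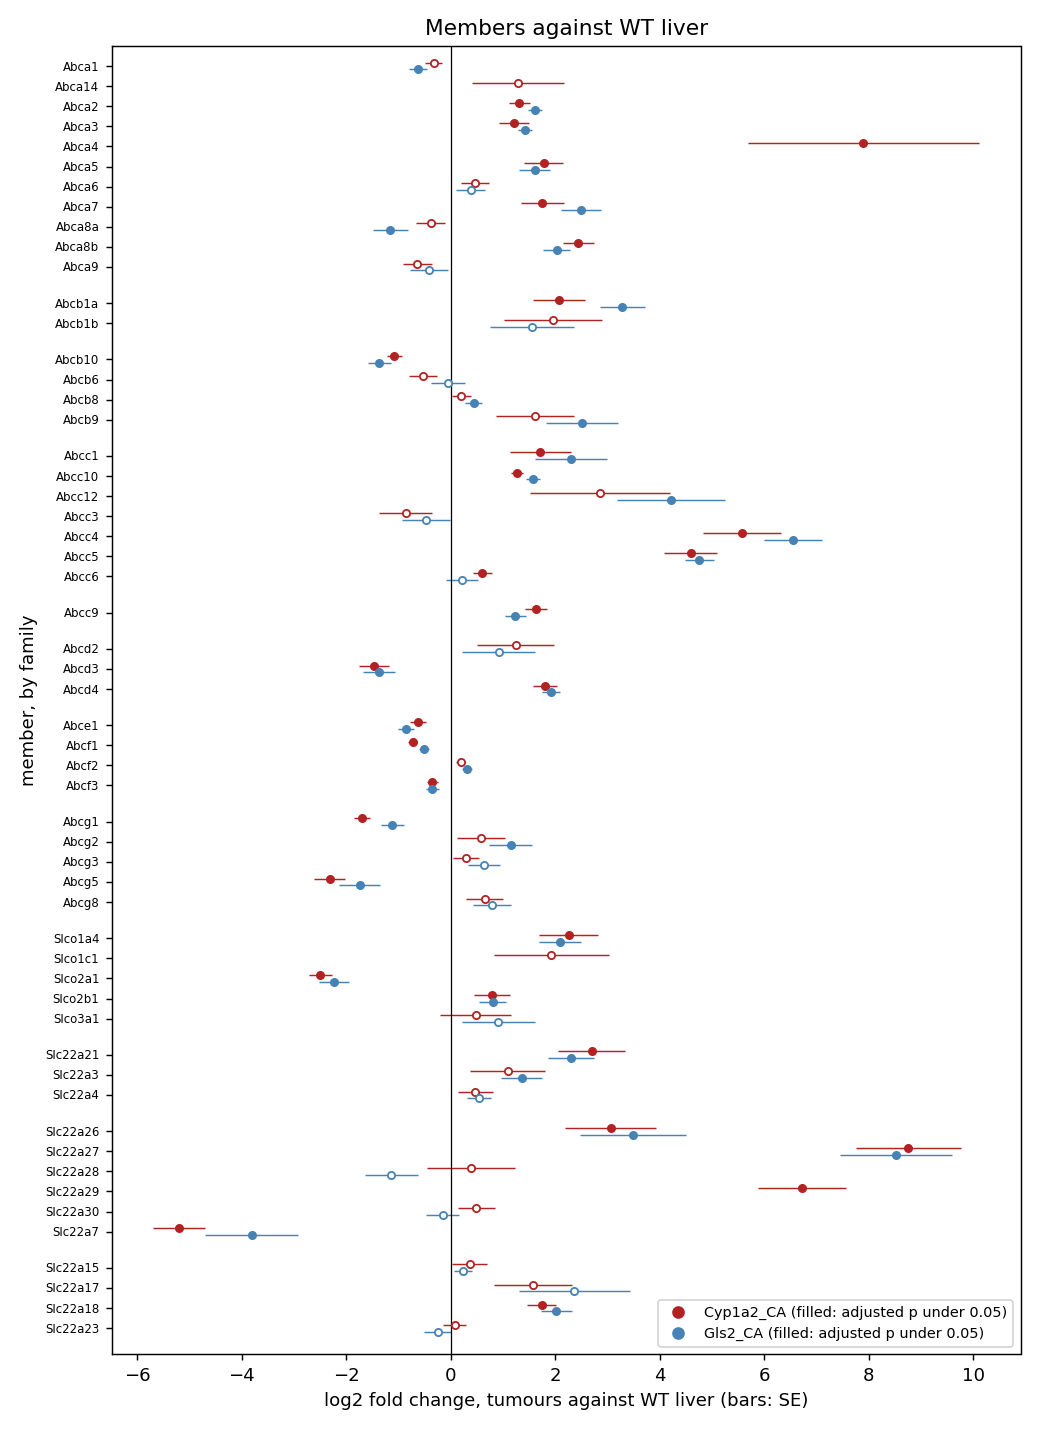
Log2 fold change of tested members against WT liver (x axis), grouped by family (y axis), for Cyp1a2_CA in red and Gls2_CA in blue; bars are standard errors and filled points had an adjusted p under 0.05. Slc22a27, Abcc4 and Abcc5 lie far to the right in both comparisons and Slc22a7 far to the left.

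Abcc4, which exports cyclic nucleotides, bile acids and drugs at the sinusoidal face, and Abcc5, a related nucleotide and conjugate pump, rose in both tumour groups, and every tumour animal was above every WT animal. Of the 7 ABCC pumps, 5 rose and 0 fell in each comparison, where 38.3% and 39.2% of all genes rose. The median of the 7 log2 differences was 1.71 in Cyp1a2_CA and 2.31 in Gls2_CA. After correction for length and GC, 2 of the 7 (Abcc4 and Abcc5) rose and 1 (Abcc3) fell in Cyp1a2_CA. Over all genes 4549 of 14845 rose and 5210 fell there. In Gls2_CA 4 of the 7 rose and 0 fell, against 4127 and 5228 of 13521 genes.

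Abcc4 (chromosome 14, 118482692 to 118706219, minus strand, mm10) ran from 2.30 to 4.16 CPM in WT with a median of 2.95. In Cyp1a2_CA its lowest, median and highest levels were 23.5, 76.9 and 414 CPM. The 5 Gls2_CA animals had 144, 733, 78.2, 361 and 205 CPM. The lowest tumour was thus several times above the highest WT liver, and tumours spread over more than a decade. Its log2 fold change was 5.58 ± 0.75 (SE, n = 9 and 6, adjusted p = 6.7e-06) in Cyp1a2_CA and 6.55 ± 0.56 (n = 5 and 6, adjusted p = 8.4e-07) in Gls2_CA.

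Abcc5 (chromosome 16, 20331303 to 20426394, minus strand) ran from 5.30 to 7.62 CPM in WT, with a median of 6.65. In Cyp1a2_CA the lowest, median and highest levels were 43.7, 132 and 382 CPM, and in Gls2_CA the animals had 116, 156, 291, 235 and 128 CPM. No tumour came near the WT range. The log2 fold change was 4.59 ± 0.51 (SE, adjusted p = 8.2e-07) in Cyp1a2_CA and 4.76 ± 0.29 (adjusted p = 6.5e-08) in Gls2_CA, and with the length and GC offset it was 3.30 and 3.39. Its neighbour Abcf3, a translation factor, fell by 0.35 on the log2 scale in each comparison. The Abcf3 call in Gls2_CA was lost with no filter (-0.25, adjusted p = 0.17), with every library as a replicate (-0.29, adjusted p = 0.067) and without GAB294 or WT replicates 5 or 6 (adjusted p of 0.053 to 0.055).

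Abcb1a, a P-glycoprotein gene that exports many hydrophobic drugs, ran from 3.55 to 5.32 CPM in WT. In Cyp1a2_CA it had a lowest level of 3.99, a median of 19.3 and a highest of 49.2 CPM. The Gls2_CA animals had 58.9, 72.4, 7.15, 49 and 34.4 CPM. Low values in the tumours came from CAB44 (3.99 CPM), CAB26 (4.68), CAB225 (5.57) and GAB235 (7.15), of which CAB44, CAB225 and GAB235 had high Ttn. It rose by a log2 fold change of 2.07 ± 0.50 (SE, adjusted p = 0.0016) and 3.28 ± 0.43 (adjusted p = 2.9e-05). Its paralog Abcb1b spread from 0.51 to 37.1 CPM in Cyp1a2_CA and from 0.43 to 26.7 in Gls2_CA against 0.90 to 3.58 in WT, and was not called (adjusted p = 0.071 and 0.099). The Abcb1b difference was called in Cyp1a2_CA without the Ttn-high libraries (2.31, adjusted p = 0.018). Reads of such close paralogs may have been split in the counting, which also holds for Abca8a and Abca8b and for the Slc22a genes of chromosome 19.

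Abcc1, a broad exporter of glutathione conjugates, had 1.51 to 3.01 CPM in WT. It was at 20.2 to 43.3 CPM in the 4 Ttn-high animals and at 1.73 to 5.27 in the 11 other tumour animals, so the high values were those of the Ttn-high animals. Its log2 fold change was 1.71 ± 0.59 (SE, adjusted p = 0.016) in Cyp1a2_CA and 2.31 ± 0.68 (adjusted p = 0.0092) in Gls2_CA. Without the Ttn-high libraries it was 0.59 and 0.81, both still called, and with the length and GC offset it was -0.43 and -0.04 with no call.

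Abcc10, a pump of lipophilic anions and taxanes, was tight within groups: 8.84 to 13.1 CPM in WT, 22.8 to 32.6 in Cyp1a2_CA and 27.7 to 41.0 in Gls2_CA, with no overlap. It rose by 1.27 ± 0.11 and 1.57 ± 0.13 on the log2 scale, and the Cyp1a2_CA call was lost under the offset for length and GC (0.32, adjusted p = 0.16). Abcc12, whose cargo is poorly known, was at most 0.77 CPM in WT and reached 15.8 CPM in CAB52 and 23.5 in GAB229. It rose in Gls2_CA (4.21 ± 1.03, SE, adjusted p = 0.003), by 2.97 without GAB229, and in Cyp1a2_CA the adjusted p was 0.066. Abcc6, which mediates ATP release from hepatocytes, rose in Cyp1a2_CA (0.60 ± 0.18, SE, adjusted p = 0.0084) and had 0.22 ± 0.30 in Gls2_CA (adjusted p = 0.54). The Abcc6 call was lost with upper-quartile scaling (0.38, adjusted p = 0.081) and its sign turned with the length and GC offset (-0.18). Abcc3, a basolateral exporter of conjugates and bile acids, was not called: WT spanned 95.8 to 203 CPM, Cyp1a2_CA 9.15 to 251 and Gls2_CA 27.7 to 277. Abcc3 was called lower in Gls2_CA without GAB229, at -1.14 (adjusted p = 0.01). In Cyp1a2_CA it was called lower with limma-voom (-1.30, adjusted p = 0.004), after correction for length and GC (-1.56, adjusted p = 0.011) and without CAB228 (-1.27, adjusted p = 0.018).

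Abcg2, the breast cancer resistance protein, had 57.6 to 87.4 CPM in WT and 7.02 to 220 in Cyp1a2_CA, where it was not called (adjusted p = 0.28). The Gls2_CA animals had 435, 189, 45.0, 114 and 120 CPM, a rise of 1.14 ± 0.42 (SE, adjusted p = 0.027). The Abcg2 call in Gls2_CA was lost without GAB18, the animal with 435 CPM (0.54, adjusted p = 0.11). It was lost too with upper-quartile scaling (0.92, adjusted p = 0.066), with every library as a replicate (0.94, adjusted p = 0.11), with 3 groups in 1 fit (1.16, adjusted p = 0.083), after correction for length and GC (0.57, adjusted p = 0.3) and without any one of WT replicates 1, 2, 3 and 4 (adjusted p up to 0.061). In Cyp1a2_CA Abcg2 was called higher without CAB145 (0.74, adjusted p = 0.026).

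**Figure D2:**
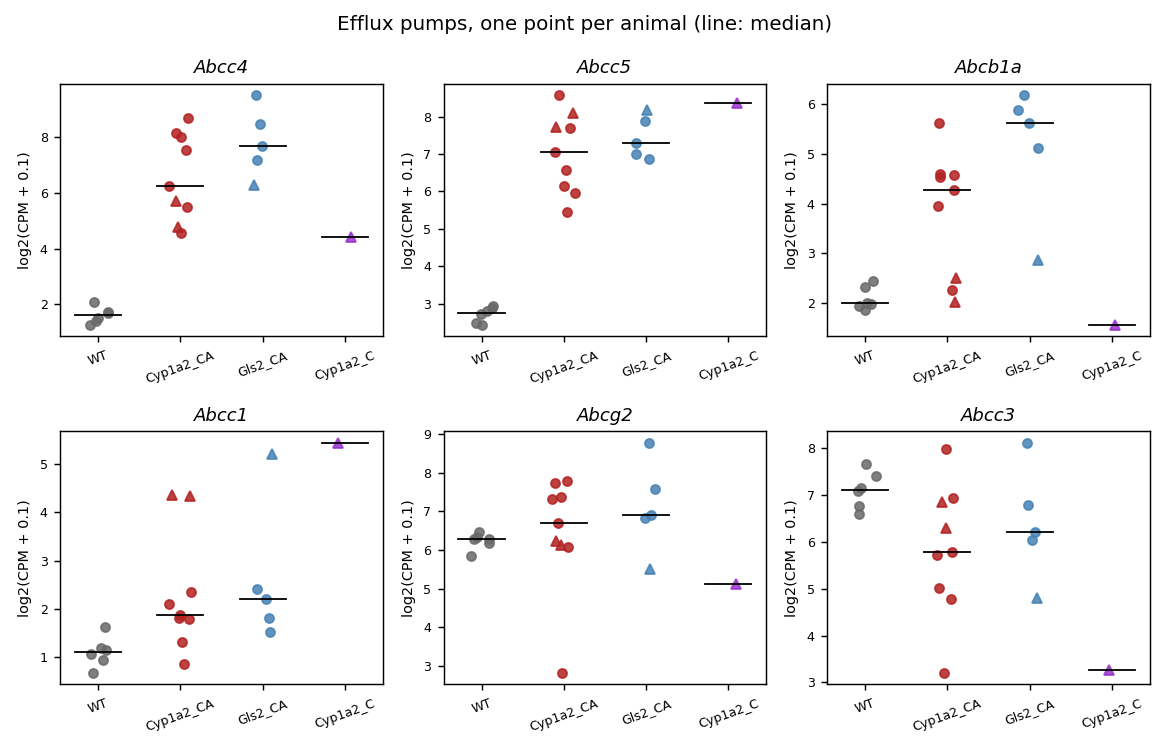
Level of 6 export pumps as log2(CPM + 0.1) (y axis) in each animal of the 4 groups (x axis); triangles are animals with Ttn above 1000 CPM and lines are medians. Abcc4 and Abcc5 lie above WT in every tumour, while for Abcc1 the triangles make up the upper points.

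One promoter region is shown for Abcc4, the pump with the largest rise. It is the RefSeq window (GRCm38.p6, chr14:118706170-118706469, minus strand, written 5′ to 3′) from 250 bases before the start to 50 after it. Capitals mark matches to the antioxidant response element core TGACNNNGC and to the STAT5 motif TTCNNNGAA, searched on both strands.
Abcc4: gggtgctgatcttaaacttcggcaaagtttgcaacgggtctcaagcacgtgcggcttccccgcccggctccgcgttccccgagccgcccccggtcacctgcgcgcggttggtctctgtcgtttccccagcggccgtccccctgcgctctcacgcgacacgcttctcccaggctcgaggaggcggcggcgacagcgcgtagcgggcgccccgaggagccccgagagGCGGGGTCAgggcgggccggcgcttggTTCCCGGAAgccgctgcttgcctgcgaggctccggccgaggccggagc
TGACNNNGC was found in 12.4% of 32851 RefSeq windows of this length and in 13.1% of the 61 windows of members, which belonged to 6 members (Abcc4, Abcb1a, Abcc10, Abca8b, Slc22a27 and Slco4c1). TTCNNNGAA was in 8.3% of all windows and 9.8% of member windows. The TCF/LEF motif CTTTGAT was in 3.7% of all windows and in 0 of the 61 member windows. A window was given for 51 of the 69 members, and a match describes letters only.

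Sterol exporters split within a gene pair. Abcg5 and Abcg8 encode the partners of one sterol pump, and in WT liver they had similar CPM. In tumours Abcg5 fell, while Abcg8 was not called and mostly lay above WT.

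Abcg5 ran from 66.9 to 93.2 CPM in WT (median 70.2), and in Cyp1a2_CA from 5.06 to 30.1 (median 14.8). The Gls2_CA animals had 14.4, 30.7, 5.06, 30.0 and 39.6 CPM. All 14 tumour animals of these groups lay below all WT animals. It fell by 2.31 ± 0.30 (SE, adjusted p = 4.0e-06) on the log2 scale in Cyp1a2_CA and by 1.74 ± 0.39 (adjusted p = 0.0017) in Gls2_CA.

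Abcg8 ran from 54.7 to 82.7 CPM in WT (median 67.6), from 24.7 to 196 in Cyp1a2_CA (median 106), and had 92.9, 123, 30.9, 161 and 229 CPM in Gls2_CA. Its log2 difference was 0.65 ± 0.35 (SE, adjusted p = 0.11) and 0.78 ± 0.36 (adjusted p = 0.068). The lowest tumour values were those of Ttn-high animals (24.7, 50.6 and 30.9 CPM), and without the Ttn-high libraries it was called higher at 0.89 (adjusted p = 0.0022) and 1.03 (adjusted p = 0.0011).

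The log2 ratio of Abcg8 to Abcg5 (0.1 CPM added to each) was -0.13 ± 0.22 (SD, n = 6) in WT, 2.78 ± 0.28 (n = 9) in Cyp1a2_CA and 2.44 ± 0.27 (n = 5) in Gls2_CA. It ran from -0.36 to 0.25 in WT and from 2.0 to 3.22 in the tumours of these groups, Ttn-high animals included. The pair was singled out after its values were seen, so the ratio is given with no test. Abcg5 and Abcg8 exons share 82 bases on opposite strands, and the strand setting of the counting is not given in the sources used here. In the library pairs or trios of 1 animal, Abcg5 differed by 1.29 to 1.81 times and Abcg8 by 1.32 to 2.13 times.

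**Figure D3:**
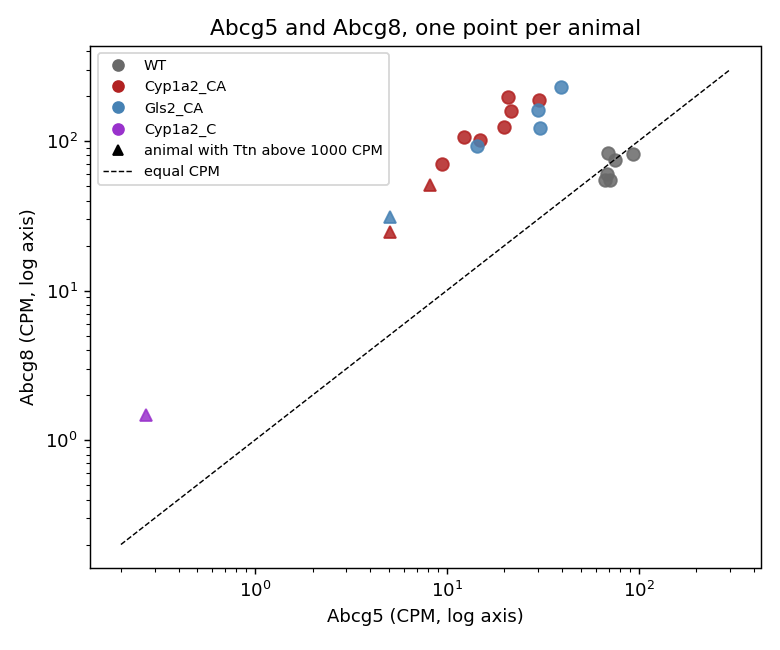
Level of Abcg8 (y axis) against Abcg5 (x axis) in each animal, both in CPM on log axes; triangles are animals with Ttn above 1000 CPM and the dashed line marks equal CPM. WT livers lie about the line and all tumours above it, the Cyp1a2_C library at far lower levels of both.

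RefSeq gives Abcg8 (plus strand) start sites at 84676302, within Abcg5, and at 84683121, which lies 110 bases from the Abcg5 start (84683011, minus strand). From the nearer start the pair is transcribed in opposite directions. The Abcg8 window of that start (GRCm38.p6, chr17:84682871-84683170, plus strand, 5′ to 3′) is shown because both genes of the pair start within it; capitals mark the 209 bases that lie also in the Abcg5 window.
Abcg8: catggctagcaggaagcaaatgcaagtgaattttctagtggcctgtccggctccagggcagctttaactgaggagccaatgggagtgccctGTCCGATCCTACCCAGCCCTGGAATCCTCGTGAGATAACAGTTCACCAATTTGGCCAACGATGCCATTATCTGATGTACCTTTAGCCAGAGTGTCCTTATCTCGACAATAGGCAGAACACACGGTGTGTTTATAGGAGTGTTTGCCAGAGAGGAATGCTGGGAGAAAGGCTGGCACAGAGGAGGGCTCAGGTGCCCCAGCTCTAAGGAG

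Abcg1, which moves cholesterol to lipoproteins in many cells, fell in both groups, from 10.7 to 14.8 CPM in WT to 2.93 to 5.88 in Cyp1a2_CA and 4.39 to 8.92 in Gls2_CA, with no overlap. Its log2 differences were -1.70 ± 0.15 (SE, adjusted p = 5.6e-08) and -1.11 ± 0.22 (adjusted p = 0.00069). Abca1 had 369 to 546 CPM in WT and 276 to 596 in Cyp1a2_CA (-0.33 ± 0.17, SE, adjusted p = 0.088), and fell in Gls2_CA (-0.62 ± 0.18, adjusted p = 0.007). In Cyp1a2_CA Abca1 was called lower after correction for length and GC (-1.42, adjusted p = 4.9e-05), with upper-quartile scaling (-0.54, adjusted p = 0.0088), with the stricter filter (-0.40, adjusted p = 0.037), with thinned counts (-0.41, adjusted p = 0.036) and without CAB26 (-0.43, adjusted p = 0.02). In Gls2_CA the correction for length and GC gave -1.80.

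ABCA members carry lipids. Of 11 tested in Cyp1a2_CA 6 rose and 0 fell, against 38.3% and 32.7% of all genes, and of 9 tested in Gls2_CA 5 rose and 2 fell, against 39.2% and 34.0%. Abca2, a lysosomal lipid transporter, rose from 69.9 to 81.7 CPM in WT to 82.1 to 297 in Cyp1a2_CA (1.32 ± 0.20, SE, adjusted p = 2.2e-05) and 197 to 320 in Gls2_CA (1.61 ± 0.14, adjusted p = 8.5e-07). Abca3, the phospholipid pump of lung surfactant, rose by 1.21 and 1.42, Abca5 by 1.78 and 1.60, and Abca7, a phospholipid exporter, by 1.75 and 2.49. With the length and GC offset Abca2 (0.16 and 0.32), Abca3 (0.05 and 0.14) and Abca5 (0.76 and 0.55) were not called in either comparison. Abca7 with that offset was not called in Cyp1a2_CA (0.51, adjusted p = 0.1) and was called in Gls2_CA (1.12). Without the Ttn-high libraries Abca7 rose by 1.16 and 1.87. Abca4, the retinal flippase, was at most 0.26 CPM in WT and at most 1.91 in the 11 other tumour animals, and had 36.4 CPM in CAB44, 62.0 in CB6, 264 in GAB235 and 267 in CAB225.

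A cluster of 5 ABCA genes lies on chromosome 11 (109932190 to 110337716, all on the minus strand), and neighbours differed in direction. Abca8b, a lipid transporter gene whose close copy is Abca8a, had 60.5 to 85.4 CPM in WT and 173 to 671 in Cyp1a2_CA (median 464). The Gls2_CA animals had 386, 381, 114, 392 and 318 CPM. Every tumour animal of both groups was above WT, the lowest 3 being the Ttn-high animals, and Abca8b rose by 2.44 ± 0.29 (SE, adjusted p = 1.8e-06) and 2.03 ± 0.26 (adjusted p = 2.0e-05). Abca8a had 169 to 227 CPM in WT, 64.2 to 250 in Cyp1a2_CA (-0.39 ± 0.29, adjusted p = 0.24) and 35.4 to 194 in Gls2_CA, where it fell by 1.15 ± 0.33 (adjusted p = 0.0077). After correction for length and GC, Abca8a was called lower in Cyp1a2_CA too (-0.83, adjusted p = 0.035). The log2 ratio of Abca8b to Abca8a ran from -1.57 to -1.17 over WT livers and from 0.54 to 2.56 over tumours of both groups. Abca6 (adjusted p = 0.13 and 0.23) and Abca9 (0.053 and 0.32) of the same cluster were not called.

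The organic anion carriers of SLC22 held the extremes in both directions. Slc22a7 (OAT2), an uptake carrier of nucleobases, urate and prostaglandins, fell the most of all members. WT livers had 43.4 to 106 CPM (median 65.8), Cyp1a2_CA 0.66 to 6.80 (median 1.41), and the Gls2_CA animals 16.5, 0.87, 0.072, 4.13 and 6.40 CPM. No tumour reached the lowest WT animal. It fell by 5.20 ± 0.50 (SE, adjusted p = 1.5e-07) in Cyp1a2_CA and 3.81 ± 0.89 (adjusted p = 0.0022) in Gls2_CA, and by 4.73 in Gls2_CA without GAB18. Its neighbour within 200 kb, Abcc10, rose.

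Slc22a27, a mouse gene grouped with the organic anion carriers, had 6 counts over all WT livers, at most 0.26 CPM. Cyp1a2_CA animals had 1.13 to 84.0 CPM (median 24.5) and the Gls2_CA animals 64.0, 3.08, 5.76, 38.8 and 21.1. All animals of both groups lay above all WT animals, and the lowest Cyp1a2_CA animal was CAB225. The Cyp1a2_C library had 0.090 CPM, within the WT range. The ratio of summed counts, each divided by TMM-scaled library totals, was 487 (95% interval 224 to 1327) in Cyp1a2_CA and 435 (200 to 1186) in Gls2_CA. The interval covers counting error only. The fitted log2 difference of Slc22a27 was 8.76 ± 1.01 (SE, adjusted p = 1.2e-06) and 8.52 ± 1.07 (adjusted p = 2.0e-05). Slc22a29 of the same cluster had 5 WT counts. It reached 0.49 to 14.3 CPM in Cyp1a2_CA (ratio 119, interval 51.1 to 368, adjusted p = 3.1e-06 in the fit), and did not pass the low-count filter in the Gls2_CA comparison, where animals had 0.026 to 6.91 CPM. Slc22a26 rose by 3.06 ± 0.86 (SE, adjusted p = 0.0051) and 3.49 ± 1.01 (adjusted p = 0.008), from at most 0.77 CPM in WT to at most 6.57 and 9.11.

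These genes lie with Slc22a28, Slc22a30 and Slc22a8 in a cluster of 6 on chromosome 19 (7781041 to 8611835). Slc22a8 was not tested in either comparison and Slc22a29 was not tested in Gls2_CA. Of those tested, 3 rose in Cyp1a2_CA and 2 in Gls2_CA, where 38.3% and 39.2% of all genes rose. The abundant member in WT liver, Slc22a30, had 89.7 to 173 CPM there, 65.5 to 362 in Cyp1a2_CA and 35.9 to 182 in Gls2_CA, and was not called (adjusted p = 0.23 and 0.66). Slc22a28 had 5.48 to 11.5 CPM in WT, 0.029 to 32.0 in Cyp1a2_CA and 0.72 to 10.2 in Gls2_CA (adjusted p = 0.69 and 0.061). The genes of the cluster that rose had at most 0.77 CPM in any WT liver. The Slc22a27 window (GRCm38.p6, chr19:7965978-7966277, minus strand, 5′ to 3′) is printed as that of the member with the largest fold; capitals mark its 2 matches to TGACNNNGC.
Slc22a27: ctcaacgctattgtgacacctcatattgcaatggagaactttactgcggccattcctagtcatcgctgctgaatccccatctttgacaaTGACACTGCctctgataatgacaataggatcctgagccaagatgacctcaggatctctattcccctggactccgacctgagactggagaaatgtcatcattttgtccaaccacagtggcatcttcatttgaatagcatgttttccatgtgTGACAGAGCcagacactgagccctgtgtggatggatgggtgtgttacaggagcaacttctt
Slc22a12, a urate exchanger of kidney, had 1 count in WT, 476 in Cyp1a2_CA and 798 in Gls2_CA, but its exons share 682 bases with Nrxn2 on the opposite strand. Members with 0 WT counts included Abca17 and Slco5a1. With a floor of 3 counts for the whole WT group, summed Abca17 counts were at least 19.1-fold higher in Cyp1a2_CA and 24.2-fold in Gls2_CA. Those of Slco5a1 were at least 14.5-fold and 6.62-fold higher. Abca17 was not tested against WT. It was at 0 CPM in CAB26, CAB228, CAB239 and GAB229, and highest in the Ttn-high animals CAB44 (2.16) and GAB235 (1.99). Slco5a1 had 2.71 CPM in CAB225 and at most 0.46 in every other Cyp1a2_CA animal.

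**Figure D4:**
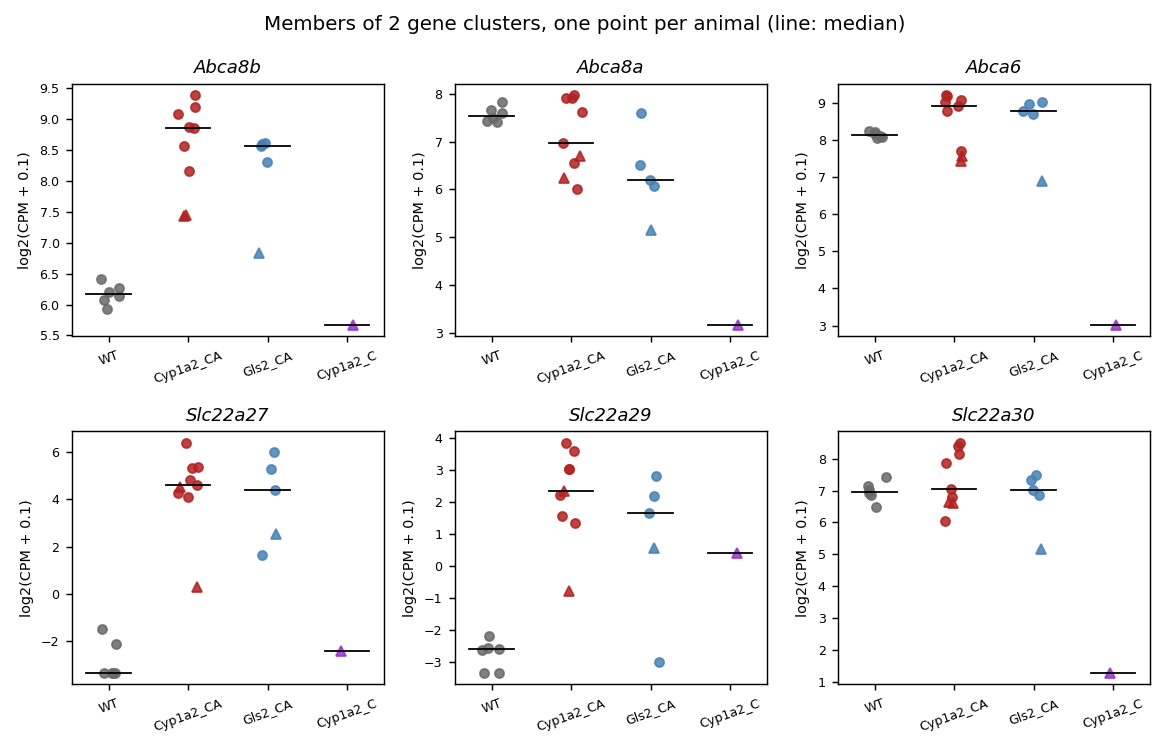
Level of 3 neighbours of the chromosome 11 ABCA cluster (top) and 3 of the chromosome 19 SLC22 cluster (bottom), as log2(CPM + 0.1) (y axis) in each animal by group (x axis); triangles are animals with Ttn above 1000 CPM and lines are medians. Abca8b and Slc22a27 lie above WT in all Cyp1a2_CA and Gls2_CA animals, while Abca6 and Slc22a30 overlap WT.

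Among cation carriers and the remaining SLC22 members, Slc22a21 and Slc22a18 rose in both comparisons. Slc22a3 (OCT3) had 4.95 to 6.52 CPM in WT and was called in Gls2_CA (1.36 ± 0.39, SE, adjusted p = 0.0076) and not in Cyp1a2_CA (adjusted p = 0.19). The Slc22a3 call was lost with 3 groups in 1 fit (1.37, adjusted p = 0.13). Its exons share 420 bases with Plg, an abundant liver gene on the opposite strand. Slc22a21, a carnitine carrier gene, rose by 2.70 ± 0.65 (adjusted p = 0.0015) and 2.30 ± 0.44 (adjusted p = 0.00056) from at most 0.46 CPM in WT. Slc22a18, an imprinted gene of uncertain cargo, had 29.7 to 33.6 CPM in WT, 40.6 to 189 in Cyp1a2_CA and 36.6 to 186 in Gls2_CA, with no overlap. It rose by 1.74 ± 0.27 (adjusted p = 3.1e-05) and 2.02 ± 0.30 (adjusted p = 7.0e-05). Slc22a23, an orphan carrier, was not called (adjusted p = 0.77 and 0.4).

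Organic anion transporting polypeptides moved in both directions. Slco2a1, the prostaglandin transporter that endothelial cells also express, had 64.7 to 99.8 CPM in WT (median 77.7), 7.12 to 23.4 in Cyp1a2_CA (median 16.7), and 18.0, 25.4, 6.05, 23.9 and 16.9 in Gls2_CA. The groups did not overlap, and Slco2a1 fell by 2.50 ± 0.22 (SE, adjusted p = 6.9e-08) and 2.23 ± 0.29 (adjusted p = 3.0e-05). Beside it, 6 of 8 endothelial markers fell and 1 rose in each comparison, where 32.7% and 34.0% of all genes fell, with medians of -1.04 and -1.47. The marker that rose was Pecam1, from a mean of 21.5 CPM in WT to 85.1 and 72.8. Slco1a4 (Oatp2), which takes up digoxin and bile acids, had 7.09 to 18.1 CPM in WT, 10.9 to 189 in Cyp1a2_CA (median 50.4), and 38.0, 14.9, 57.9, 97.7 and 78.5 in Gls2_CA. It rose by 2.26 ± 0.57 (adjusted p = 0.0022) and 2.10 ± 0.40 (adjusted p = 0.00054), with 1 Gls2_CA and 2 Cyp1a2_CA animals within the WT range. Slco2b1, a carrier of sulfated steroids and statins, had 134 to 156 CPM in WT and medians of 298 and 301 in the tumour groups. Its rise was 0.79 ± 0.34 (adjusted p = 0.048) in Cyp1a2_CA, and 19 alternatives left it uncalled, among them upper-quartile scaling (0.57, adjusted p = 0.14), the length and GC offset (0.21) and leaving out each of 6 tumour animals or any WT animal. In Gls2_CA it was 0.80 ± 0.26 (adjusted p = 0.016), lost with upper-quartile scaling (0.58, adjusted p = 0.068), with 3 groups in 1 fit (0.82, adjusted p = 0.078) and with the length and GC offset (0.21). Slco3a1 had 4.42 to 5.88 CPM in WT, 19.0 to 34.1 in the Ttn-high animals and 1.35 to 6.47 in the other tumours. It was not called in either comparison, and without the Ttn-high libraries it fell by 1.05 (adjusted p = 0.0051) in Cyp1a2_CA and had -0.61 (adjusted p = 0.086) in Gls2_CA.

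**Figure D5:**
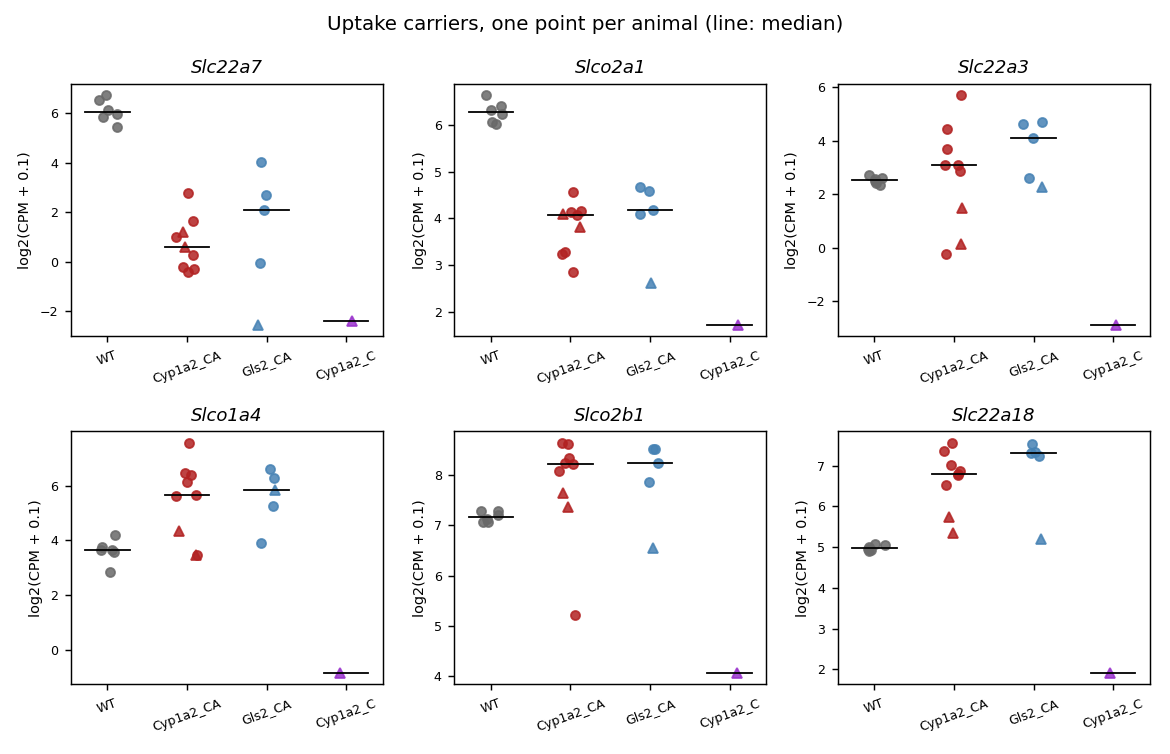
Level of 6 uptake carriers as log2(CPM + 0.1) (y axis) in each animal of the 4 groups (x axis); triangles are animals with Ttn above 1000 CPM and lines are medians. Slc22a7 and Slco2a1 lie below WT in every tumour and Slc22a18 above WT in every Cyp1a2_CA and Gls2_CA animal.

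Of the 4 ABCD members 1 rose and 2 fell in each comparison, and of the 5 ABCB members of organelles 2 fell in each, with 0 rising in Cyp1a2_CA and 2 (Abcb8 and Abcb9) in Gls2_CA. Over all genes 38.3% rose and 32.7% fell in Cyp1a2_CA, and 39.2% and 34.0% in Gls2_CA. After correction for length and GC, neither Abcb8 (-0.21, adjusted p = 0.4) nor Abcb9 (1.11, adjusted p = 0.063) was called in Gls2_CA, and Abcb8 was not called with upper-quartile scaling either (0.21, adjusted p = 0.26). Abcd3, which imports branched fatty acids and bile acid precursors into peroxisomes, was the most abundant member per kilobase of exon in WT (94.7 CPM per kb, against 36.2 and 39.4 in the tumour groups). It had 513 to 729 CPM in WT, 95.1 to 472 in Cyp1a2_CA and 74.1 to 363 in Gls2_CA, and fell by 1.47 ± 0.28 (SE, adjusted p = 0.00025) and 1.38 ± 0.31 (adjusted p = 0.0017). Abcd4, a lysosomal vitamin B12 transporter, rose by 1.80 ± 0.24 and 1.92 ± 0.17 from 4.07 to 6.59 CPM in WT, with no overlap. Abcb10, a mitochondrial biliverdin exporter, fell by 1.08 ± 0.15 and 1.36 ± 0.21. Abcb9, a lysosomal peptide transporter, had 5.34 to 23.6 CPM in the Ttn-high animals and at most 4.76 in the other tumours, and rose in Gls2_CA (2.52 ± 0.69, adjusted p = 0.0058), by 1.14 without the Ttn-high library.

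Abcc9, a potassium channel subunit typical of pericytes and muscle, rose from 36.9 to 48.2 CPM in WT to 92.6 to 201 in Cyp1a2_CA (1.63 ± 0.21, SE, adjusted p = 4.0e-06) and 63.4 to 147 in Gls2_CA (1.24 ± 0.20, adjusted p = 0.00015). The Gls2_CA call was lost under the offset for length and GC (0.33, adjusted p = 0.065). The summed level of 6 striated muscle markers, Ttn among them, was 1.15 to 2.37 CPM in WT, 2.31 to 20910 in Cyp1a2_CA and 4.28 to 29977 in Gls2_CA. Only 1 of the 6 passed the filter on low counts in each comparison, and 4 had 0 counts in WT. The highest sums were those of CAB44 and GAB235, where Ttn alone had 22569 and 31446 CPM before TMM scaling. The sum thus mostly repeats the gene that set the Ttn-high animals apart. The summed level of 8 stellate, pericyte and fibroblast markers was 396 to 493 CPM in WT, 157 to 611 in Cyp1a2_CA and 164 to 218 in Gls2_CA. Of these 8, 0 rose and 3 fell in Cyp1a2_CA, where 38.3% and 32.7% of all genes did. In Gls2_CA 0 rose and 6 fell, against 39.2% and 34.0%. Among these markers Dcn, a fibroblast gene, had a mean of 136 CPM in WT and 51.6 in Gls2_CA, and Pdgfrb, a pericyte gene, had 8.47 in WT, 14.4 in Cyp1a2_CA and 10.9 in Gls2_CA (adjusted p = 0.055 and 0.17). The part of these cells in the Abcc9 values was not tested. Among the translation members, Abce1, the ribosome recycling factor, fell by 0.63 and 0.86 and Abcf1 by 0.73 and 0.51. Abcf2 rose in Gls2_CA (0.31 ± 0.09, SE, adjusted p = 0.0071), a call lost with upper-quartile scaling (0.086, adjusted p = 0.4), and was not called in Cyp1a2_CA (adjusted p = 0.072).

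No member passed the threshold between the tumour groups. Of 62 members tested between Cyp1a2_CA and Gls2_CA, 0 rose and 0 fell, and the percentage called among all 17129 genes was 0 in each direction by edgeR. At an unadjusted p under 0.05 there were 3 of 62 members, among them Abcc10 (-0.31 ± 0.12, SE) and Abcg1 (-0.59 ± 0.22), named after their values were seen and both with an adjusted p of 1. The share of all genes under this unadjusted threshold was not counted, so these 3 show no trait of the members. DESeq2 and limma-voom called 0 members as well. The animals of the 2 groups did not overlap for 0 of 62 members, against 0.0876% of all genes. A missed threshold does not show equal levels: animals of each group spread widely, and libraries of 1 animal did too. In the 3 libraries of GAB242, Abcb1a ran from 8.25 to 98.8 CPM and Abcg2 from 13.9 to 194 CPM, and in those of GAB294 Abcc4 ran from 95.6 to 377 CPM.

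The Ttn-high libraries differed from the other tumours in some members, as they did in many other genes. Their summed hepatocyte markers were 678 to 14191 CPM, below the 17226 to 94182 (median 22240) of the 11 other tumour animals. The value of 94182 was that of CAB52. The part of these markers in the transporter levels was not tested. Of the 62 members tested, the 4 Ttn-high animals were all above the 11 other tumour animals for 5 (Abca4, Abcb9, Abcc1, Slc22a17 and Slco3a1) and all below for 11, against 11.3% and 10.7% of all genes. Among the 11 were Abca6, Abca8b, Abcb6, Abcb8, Abcf2, Abcg5, Abcg8, Slc22a18 and Slc22a23. This grouping was made from the libraries' Ttn levels and is given as a description. The Cyp1a2_C library was 1 of these 4 and has no replicate, so its values carry no test. It was above all 20 other animals for 6 members (Abcc1, Abcg4, Slc22a17, Slc22a4, Slc22a8 and Slco5a1) and below all of them for 25. The same counts were not made over all genes, so they describe this library and show no trait of the members. Among the 25, Abcg8 was at 1.48 CPM and Abcd3 at 18.2. Abcc5, which is in neither set, was at 332 CPM.

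Other carriers and regulators give the setting, from 2 lists of genes that are not members. Of 29 other bile acid and drug carriers tested in Cyp1a2_CA 12 rose and 5 fell, and of 28 in Gls2_CA 9 rose and 5 fell. Over all genes 38.3% and 39.2% rose and 32.7% and 34.0% fell. The rises of this list were thus near the background, and its share of falls was lower. Slc10a1, the sodium-dependent bile acid importer, fell by 1.99 ± 0.30 (SE, adjusted p = 1.9e-05) and 2.60 ± 0.28 (adjusted p = 5.1e-06), and Slc29a1, a nucleoside carrier, rose by 1.28 and 1.5 (adjusted p = 2.4e-05 and 1.9e-05). Of 19 regulators of transporter genes 8 rose and 3 fell in Cyp1a2_CA, and 9 rose and 2 fell in Gls2_CA. The shares over all genes were the same 38.3% and 39.2% for rises and 32.7% and 34.0% for falls. Falls were again a lower share in this list. Nr1i3, the nuclear receptor CAR that controls drug-handling genes, rose by 1.51 ± 0.30 (adjusted p = 0.00034) and 1.60 ± 0.27 (adjusted p = 0.00021).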

How the data were processed

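RNA was measured in 26 libraries of mouse liver tumours and livers. The authors deposited whole-number counts per gene symbol without normalization. Per the submitters' processing notes the build was mm10; which aligner, counter, strand setting or annotation was used is not given in the sources used here. Each title's number was read as the animal, which the labels do not state, and libraries sharing one were summed (21 animals), and these animals are the replicates, so each p-value reflects only variation among them. No pair of libraries from the same group agreed within sampling noise (lowest chi-square per degree of freedom 13.6). Pairs across groups were not compared.

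A separate model was fitted for every 2 groups compared (edgeR 4.0.16, R 4.3.3): filterByExpr (minimum count 10), TMM scaling, a robust quasi-likelihood test, and Benjamini-Hochberg adjustment over all genes tested, threshold 0.05. Levels are CPM with TMM scaling over the 21 animals. A floor of 3 counts was used for groups at 0. Intervals cover counting error only. Genes, exon lengths and overlaps came from GENCODE M21 by symbol, which matched 74.4% of symbols and all 69 members; 88.1% and 90.3% of genes tested against WT had length and GC values. Promoter windows came from RefSeq. The fits were also run on simulated counts in which few genes changed and both groups had the same dispersion per gene. The comparisons with WT differ in both respects, so that run does not show how the fits behave on them.

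The members, lists and tests were chosen with earlier results of these data known. The naming rule took, per comparison, the 10 largest rises and 10 largest falls among called members with at least 1 CPM in the higher group, a list of members always named, their neighbours in genomic clusters, members of lists with small counts, and members high in 1 library. Alternatives were RLE and upper-quartile scaling, no and stricter filters (minimum count 50), libraries as replicates, the first library of each animal, 3 groups in 1 fit, DESeq2 1.42.0, limma-voom 3.58.1, a length and GC offset, thinned tumour counts, leaving out Ttn-high libraries and each animal. Of the members, 3 are included in counts and medians but are not reported singly here.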

Additional observations from a re-analysis of the deposited data

Results flagged for a closer look

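In each group, the gap between the highest or lowest animal and its neighbour was set against the group's range, with Dixon's criterion, for 45 members described or called (135 groups of animals). It marked 23 values in CPM. The criterion's rate of about 1 in 20 groups holds for independent, normally distributed values. These CPM were not log-transformed and the same animals recur over members, so the 23 cannot be weighed against that rate.

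In Gls2_CA, GAB235, a Ttn-high animal, was highest for Abca4 (264 CPM), Abca7 (106), Abcb9 (23.6), Abcc1 (37.0) and Slco3a1 (34.1), and lowest for Abca8b (114) and Slc22a18 (36.6). In Cyp1a2_CA, the Ttn-high animals were again highest, CAB225 for Abca4 (267 CPM) and CAB44 for Abca7 (79.7). In total, 9 of the 23 values came from Ttn-high animals.

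CAB52 was highest in Cyp1a2_CA for Abcb1a (49.2 CPM), Abcc12 (15.8) and Slc22a26 (6.57). CAB145 was highest for Abca3 (397 CPM), Slc22a3 (52.0) and Slco1a4 (189). CAB170 was highest for Abca5 (61.1 CPM) and Slc22a27 (84.0), CAB228 for Abcc3 (251) and CAB26 for Slc22a7 (6.80).

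In the other Gls2_CA animals, GAB18 was highest for Abcb1b (26.7 CPM), GAB229 for Abcc12 (23.5) and GAB242 for Slc22a26 (9.11). Among WT livers, replicate 2 was highest for Abcg5 (93.2 CPM).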

How the results depend on the processing

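The number of members that rose moved past 1.5 times only with the length and GC offset in Cyp1a2_CA, from 21 to 13. Rises over all genes moved there from 6442 of 16841 to 4549 of 14845. The cause was not tested. Leaving out each animal gave 20 to 25 rises and 12 to 14 falls in Cyp1a2_CA, and 22 to 30 rises and 12 to 16 falls in Gls2_CA. Between the tumour groups it gave 0 members. Of 70 called values of members, 48 stayed called in the same direction under every alternative that gave them an adjusted p. An alternative that filtered a member out, or gave it no adjusted p, was not counted as a lost call.

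The sign turned with the length and GC offset for Abcc1 (-0.43 in Cyp1a2_CA and -0.041 in Gls2_CA), Abcc6 (-0.18 and -0.64), Slco3a1 (-0.80 and -0.38), Abcg2 (-0.062) and Slc22a23 (-0.60) in Cyp1a2_CA, and Abcb8 (-0.21) and Slc22a30 (0.0062) in Gls2_CA. It turned with upper-quartile scaling for Slc22a23 (-0.15) in Cyp1a2_CA and Abcc6 (-0.0082) in Gls2_CA, and with the stricter filter for Slc22a23 (-0.0039). With limma-voom it turned for Slco3a1 (-0.85 and -0.48) and Abcb1b in Gls2_CA (-0.49). Without the Ttn-high libraries it turned for Slco3a1 (-1.05 and -0.61) and for Slc22a30 in Gls2_CA (0.076). Leaving out each animal gave -0.03 (without CAB52) to 0.16 for Slc22a23 and -0.18 (without CAB225) to 0.62 for Slco3a1 in Cyp1a2_CA, and -0.61 to 1.18 for Slco3a1 and -0.31 to 0.076 for Slc22a30 in Gls2_CA, where the turned values were those without GAB235. The cause was not tested for these.

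No paired analysis was possible because the groups are different animals and the replicate numbers only name samples. WT libraries were shallower than tumours, so members near 0 in WT are known only to within the floor of 3 counts.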
